A study of Mus musculus with 18 samples.

Results

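The cytosolic ribosomal protein genes were described in 18 libraries of poly(A) RNA from septic mice. Members were all symbols that begin with Rpl or Rps and a digit, with Rplp0, Rplp1, Rplp2 and Rpsa, and without the S6 kinases (Rps6k) and the symbols with a -ps ending. This gave 88 of 24346 symbols in the deposited tables, 53 of the large and 35 of the small subunit by their names, while 7 symbols with a -ps ending were left out. All mice were male C57BL/6, 9 weeks old, and all had cecal ligation and puncture, in which the tied and pierced cecum leaks gut bacteria into the abdomen. H2 mice inhaled 7% hydrogen gas from the end of surgery and were kept together in the gas box, so that gas and housing cannot be told apart. Control mice had the same surgery and no gas, and liver, intestine and lung were taken 24 h after it, with 3 libraries for each organ and treatment. Groups follow the titles: the free-text descriptions of the H2 libraries numbered 2 and 3 name the gas as H3 and H4, and whether these are slips is not stated. Mice without surgery are not analysed here, so every difference below lies between septic animals. Which organs belong to 1 mouse, and whether the libraries of a group are from separate mice, is not in the labels, and p values measure the spread between these libraries.

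A ribosome is built from a large and a small subunit, each a core of ribosomal RNA clothed in proteins that are needed in nearly equal numbers. Their mRNAs are among the most abundant of a cell, and many begin with a run of pyrimidines (a terminal oligopyrimidine, or TOP, motif) through which mTOR signalling and the RNA-binding protein Larp1 control how strongly they are translated. Growing and dividing cells make more of them, and ribosome production is costly for tissues under stress. The values here are FPKM, mapped fragments scaled to transcript length and library size, which follow mRNA and not its translation.

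Start-site sequences are shown for the members on which the results below turn, because many of these mRNAs begin with a pyrimidine run. Each is 30 bases of RefSeq on GRCm38.p6, with 15 bases before and 15 bases from the annotated start, and capitals mark a run of C followed by at least 5 further C or T. Rplp2 (chr7:141447636-141447665, plus strand), Rps9 (chr7:3704026-3704055, plus), Rpl38 (chr11:114668565-114668594, plus), Rps6 (chr4:86857353-86857382, minus) and Rps2 (chr17:24720048-24720077, plus) hold such a run, whereas Rps13 (chr7:116334176-116334205, minus), Rpl36al (chr12:69184053-69184082, minus) and Rplp0 (chr5:115559452-115559481, plus) do not.
Rplp2: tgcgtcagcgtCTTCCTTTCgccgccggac
Rps9: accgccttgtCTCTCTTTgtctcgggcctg
Rpl38: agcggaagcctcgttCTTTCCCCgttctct
Rps6: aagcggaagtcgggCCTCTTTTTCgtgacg
Rps2: aggcagtcgagatctcgcgCTTCTTggagc
Rps13: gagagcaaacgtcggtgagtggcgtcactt
Rpl36al: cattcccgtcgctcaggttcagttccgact
Rplp0: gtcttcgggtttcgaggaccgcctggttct

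Of the members, 67 had a start-site sequence in the table used here. A pyrimidine run on the sense strand was found in 37 of them (55.2%), against 6883 of 27025 genes in the table (25.5%). It was present in 22 of 41 large-subunit and 15 of 26 small-subunit members. The motif CCGGAAG, the binding letters of ETS-family transcription factors, was searched on both strands of the 300 bases from 250 before to 50 after the start, and lay in 26 of 67 members (38.8%) against 9.93% of all genes. A match is a description of letters and marks no proven site.

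Each organ showed the markers of its label. The summed FPKM of 8 hepatocyte genes was at least 42230 in liver libraries, that of 8 alveolar type 2 genes at least 27600 in lung libraries, and that of 8 enterocyte genes at least 2501 in intestine libraries. The files hold no read counts, and the depth estimated from the FPKM of genes at 1 fragment ran from 8.51 M to 15.5 M fragments per library. H2 intestine 2 stood apart, with the lowest estimated depth and a summed FPKM of 1142966, against 709826 to 850609 in all other libraries.

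Ribosomal protein mRNAs made up a larger share of the summed FPKM in intestine and lung than in liver. The members took 5.27, 5.29 and 5.63% of the summed FPKM in the control livers, 9.82, 10.8 and 10.9% in the control intestines and 10.99, 12.4 and 11.4% in the control lungs. Within an organ most members lay in a narrow band of FPKM, which is a scale per length. In the lung 43 members had a mean above 1000 FPKM, 31 lay between 200 and 1000, 3 between 50 and 200, 8 between 1 and 50, and 3 below 1. In the liver only 7 exceeded 1000 FPKM and 63 lay between 200 and 1000. Rpl41, which encodes the shortest of the ribosomal proteins, and the stalk protein Rplp1 were among the 3 highest in each organ, at 1665 ± 143 and 1542 ± 127 FPKM in liver, 3285 ± 554 and 2943 ± 540 in intestine and 2997 ± 459 and 2875 ± 328 in lung (SD, n = 6 libraries of both arms). In each organ these means differed by less than the SD between libraries. Within libraries Rpl41 was the higher of the pair in each liver and intestine library. The same held in each lung library but H2 lung 3 (2357 against 2538 FPKM). The third was Rps29 in the liver (1303 ± 153 FPKM) and Rpl38 in the intestine (2512 ± 485 FPKM), while in the lung Rps27rt led with 3612 ± 580 FPKM.

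Low rows included paralogs and parents of an abundant copy. Rpl10l and Rpl39l, paralogs known from the testis, were near 0 in all organs: Rpl10l was listed at 0 in all 18 libraries and Rpl39l had a mean of 0.067 FPKM in liver, 0.114 in intestine and 0.16 in lung. Rpl37rt, a retrotransposed copy of Rpl37, had a mean of 1.099 FPKM in liver, 5.98 in intestine and 2.77 in lung. Rpl26, Rpl30, Rpl34 and Rps27 are parent genes that each ribosome needs, and their means over all libraries were 5.64, 20.3, 17.4 and 97.9 FPKM. For each of them another row of the tables with the same sequence carried at least 10 times the FPKM. Gm15772 had a mean of 1395 FPKM and shares 74.3% of its 50-base words with Rpl26. Gm12191 had 1039 FPKM and shares 83.3% with Rpl30. Rpl34-ps1 had 1159 FPKM and shares 71.5% with Rpl34, and Rps27rt had 2393 FPKM and shares 91.1% with Rps27. No other member had such a partner in the table at this ratio.

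The start sites of Rps27 (chr3:90213634-90213663, minus strand) and Rps27rt (chr9:114982725-114982754, minus strand) are shown because their FPKM are the least separable. The capitals mark the pyrimidine run.
Rps27: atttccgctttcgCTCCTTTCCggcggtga
Rps27rt: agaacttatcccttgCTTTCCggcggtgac

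Rps27 (GENCODE vM21 on mm10, chr3:90212522-90213651) has up to 5 exons, and Rps27rt (chr9:114982366-114982739) has 1. Rps27 swung between libraries of 1 group, at 35.9, 5.75 and 201 FPKM in the control livers and 36.1, 7.98 and 9.73 in the H2 livers, whereas Rps27rt read 1275, 1302 and 1503 against 1133, 1208 and 1357 FPKM. Rpl26 was listed at 0 in all lung libraries, in all H2 intestines and in the libraries numbered 1 of the other groups. Other members also share sequence with further annotated genes, pseudogenes among them, for example 56.4% of the 50-base words of Rps2, 49.0% of Rpl12, 38.8% of Rpl27, 34.5% of Rplp0, 33.2% of Rpsa, 27.4% of Rpl38 and 22.1% of Rpl36al, while Rpl3l and Rps19bp1 share none. Values of Rpl26, Rpl30, Rpl34, Rps27 and their partners are uncertain as to which gene they belong to, and changes of the 4 parents are not interpreted below. In the lung the partners had lower means in the H2 group by a log2 of -0.25 ± 0.13 (Gm15772), -0.28 ± 0.12 (Gm12191), -0.40 ± 0.11 (Rpl34-ps1) and -0.29 ± 0.14 (Rps27rt), and none was called (limma adjusted p from 0.172 to 0.266).

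**Figure D1:**
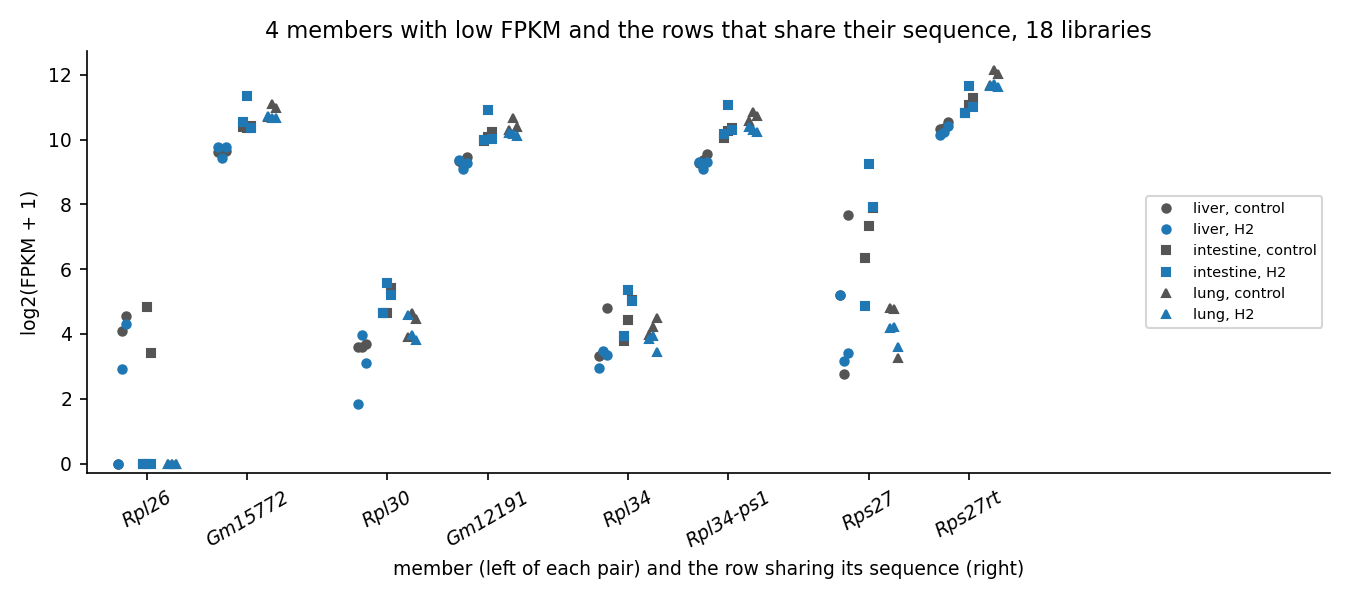
FPKM of 4 members and of the row sharing most of each one's sequence, as log2(FPKM + 1), in each of 18 libraries (marker shape gives the organ, grey control, blue H2). The partner rows lie near or above 9 on this scale, while the members lie lower and scatter widely, with Rpl26 at 0 in every lung library.

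Lung ribosomal protein mRNAs stood lower in the H2 mice nearly throughout. Of the 85 members tested (mean FPKM of at least 1), 84 had a lower mean with H2 (means compared on the log2 scale here and below), the median change was -0.32, or 0.80-fold, and the median of all 13424 tested genes was -0.004. In 70 of 85 members (82.4%) each H2 library lay below all control libraries, which held for 15.9% of all tested genes (14.1% lay above). No member was called (0 of 85 by limma at an adjusted p under 0.05, 62 at an unadjusted p under 0.05, all of them lower, where 12.5% of all genes were lower and 10.5% higher), against 0.00745% of all genes called higher and 0.0% called lower. The median FPKM over members was 1097, 1122 and 1060 in the control lungs and 912, 854 and 853 in the H2 lungs, so the groups did not overlap. Their share of the summed FPKM was 10.99, 12.4 and 11.4% in the controls and 10.9, 9.67 and 10.5% with H2, also without overlap but with the nearest libraries close together. The mean share was 11.6 ± 0.74% against 10.4 ± 0.63% (SD, n = 3).

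The summed FPKM of all genes was itself lower in the H2 lungs (832800 ± 7453 against 742900 ± 33680, SD, n = 3). With every library brought to the same sum, the members' median change was -0.16 with 78 of 85 lower, while the median of all genes became 0.14. The members thus stood 0.32 below the median gene on FPKM as deposited and 0.30 below it at equal sums. With quantile normalization, which forces 1 distribution on all libraries, they stood 0.10 below it, with a median of -0.08, 68 of 85 lower and 9 at an unadjusted p under 0.05. Abundant genes of other kinds showed a smaller shift: 242 of 358 other genes with at least 200 FPKM had lower means (67.6%, median -0.20), and H2 lay below all controls in 38.3% of them. Among the 74 members at that level all 74 were lower, with a median of -0.32, and 86.5% did not overlap.

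**Figure D2:**
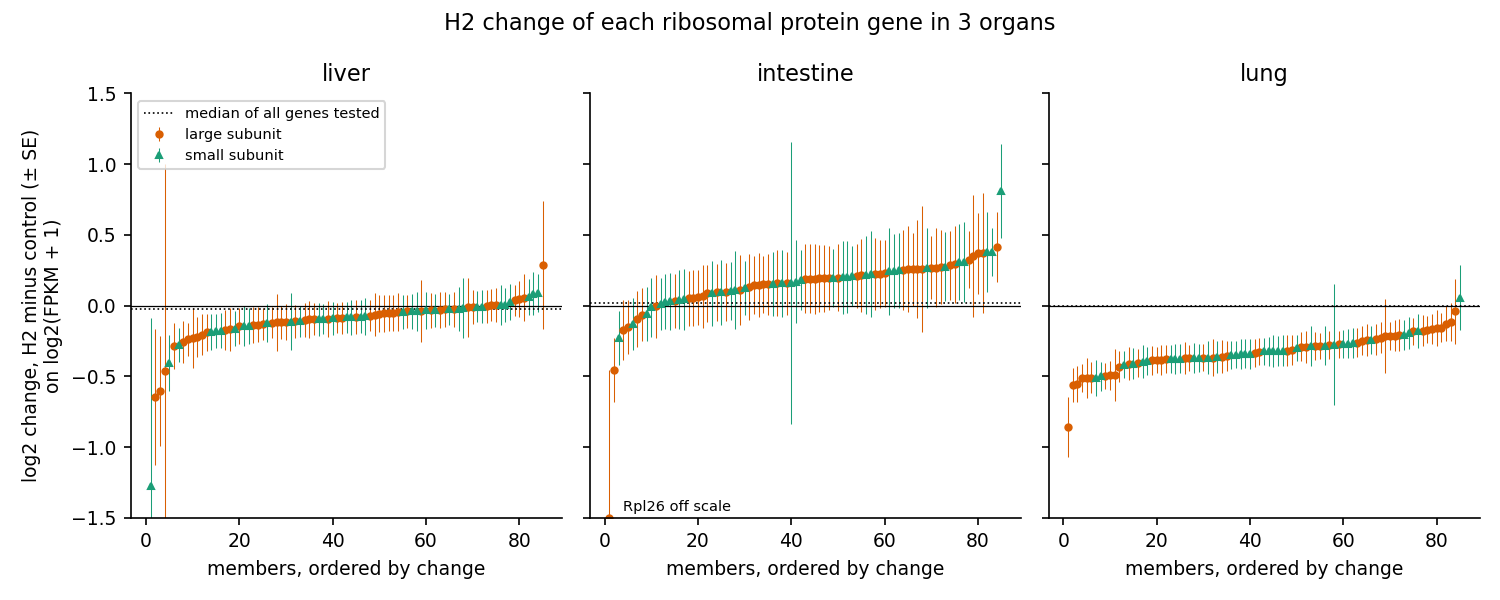
Change of each tested member (log2 H2 minus control on FPKM + 1, ± SE, n = 3 per group) ordered within liver, intestine and lung, with large-subunit members as orange circles and small-subunit members as green triangles. In the lung 84 of 85 lie below 0 and below the dotted median of all genes, and both subunits are mixed along each curve; error bars of Rps27 and Rpl26 run off the axis.

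The 5 members with the smallest p in the lung were Rpl36al, Rpl27, Rps2, Rpl38 and Rpl12. Rpl36al, a second gene for the protein that Rpl36a encodes almost identically, measured 652, 642 and 620 FPKM in the control lungs and 476, 444 and 434 in the H2 lungs. Its groups lay far apart, with a change of -0.50 ± 0.09 (limma adjusted p = 0.172). Rpl27 read 627, 638 and 564 FPKM in the controls and 448, 411 and 421 with H2, a change of -0.51 ± 0.10. Both are large-subunit proteins, and neither group pair overlapped. Rps2, a small-subunit protein near the entry of the mRNA channel, stood at 1167, 1114 and 1045 FPKM in the controls and at 836, 748 and 768 with H2, a change of -0.50 ± 0.10. Rpl38, known for its part in the translation of homeobox mRNAs, stood at 2978, 3206 and 2912 against 2332, 2069 and 2064 FPKM, a change of -0.49 ± 0.10. All 3 H2 libraries of each lay below all controls, as in 70 of the 85 members tested.

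The stalk, the flexible arm of the large subunit that recruits elongation factors, is formed by Rplp0, Rplp1, Rplp2 and, at its base, Rpl12. Rplp2 read 1897, 1683 and 1535 FPKM in control lungs and 1295, 1111 and 1073 in H2 lungs, with a change of -0.56 ± 0.13. Rplp0 read 1151, 1121 and 1042 against 859, 830 and 845 FPKM, a change of -0.39 ± 0.09. Rpl12 read 1357, 1450 and 1218 against 991, 928 and 905 FPKM, a change of -0.51 ± 0.11. Rplp1 had the smallest change of the 4, from 3155 ± 40.9 to 2594 ± 175 FPKM. In all 4 the H2 libraries lay below the controls, as in 70 of the 85 members tested (82.4%). None of the 4 was called (limma adjusted p = 0.172 for the first 3 and 0.184 for Rplp1).

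Members with roles outside the ribosome were also lower with H2, as were 84 of all 85 members tested. Control and H2 libraries did not overlap in 70 of the 85 (82.4%), so the separations below are those of most members. Rpsa, also known as a laminin receptor, read 688, 692 and 626 FPKM in control lungs and 523, 485 and 492 in H2 lungs. Rps27a, made as a fusion with ubiquitin, changed by -0.51 ± 0.13 between means of 1406 ± 161 and 987 ± 93.6 FPKM. Rpl13a, which silences inflammatory mRNAs when released from the ribosome, stood at 1167 ± 78.5 against 892 ± 41.3 FPKM. In these 3 genes control and H2 libraries did not overlap. Rps6, the target of S6 kinases, measured 857 ± 35.9 against 710 ± 36.5 FPKM, and Rps3, which also binds NF-kB, 494 ± 28.5 against 418 ± 19.3 FPKM. Of the proteins that bind Mdm2 when ribosome assembly is disturbed, Rpl11 (1534 ± 110 against 1198 ± 62.4 FPKM) and Rpl23 (914 ± 45.9 against 691 ± 45.4 FPKM) were separated between the groups, and Rpl5 (510 ± 38.1 against 455 ± 29.0 FPKM) was not. Rps19, mutated in Diamond-Blackfan anaemia, stood at 1370 ± 71.2 against 1143 ± 89.2 FPKM, Rps14 at 1855 ± 290 against 1512 ± 31.1 FPKM and Rpl10, which completes the large subunit, at 1943 ± 107 against 1728 ± 62.5 FPKM, all 3 without overlap.

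**Figure D3:**
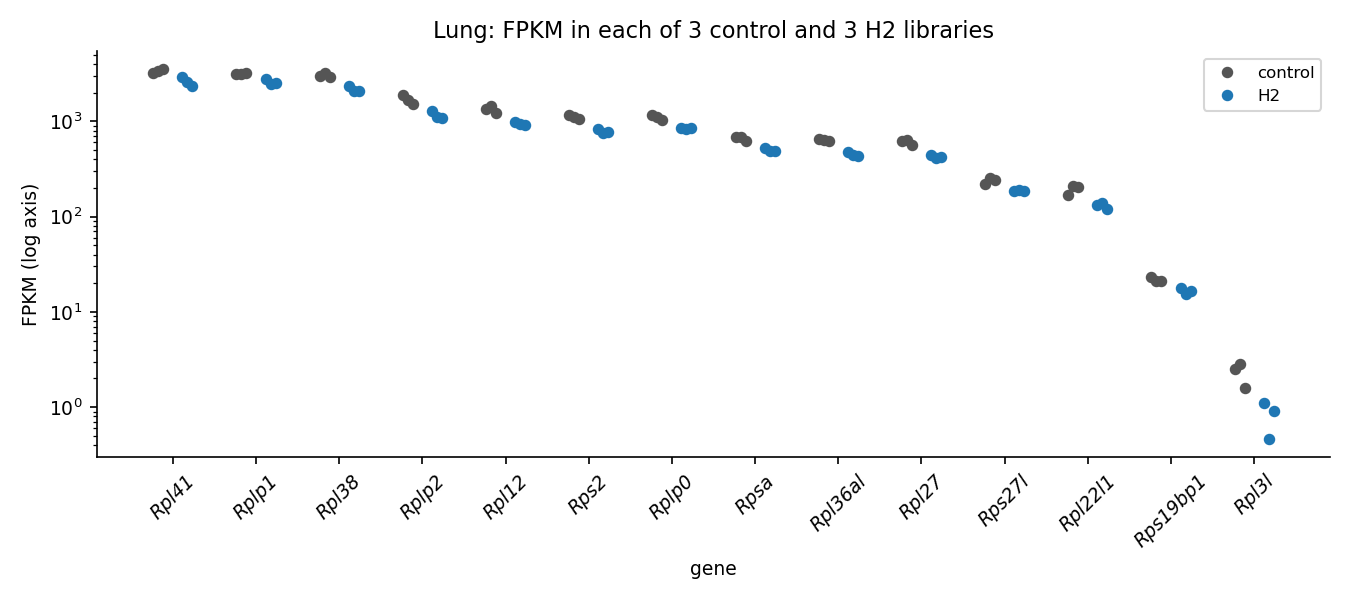
FPKM (log axis) of 14 members in each of 3 control (grey) and 3 H2 (blue) lung libraries. In each gene shown every H2 point lies below every control point, from Rpl41 at the top to Rpl3l near 1. The same held for 70 of the 85 members tested in the lung.

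The paralog pairs of the lung did not all follow their partners in size. Rpl3l, the form of Rpl3 used by heart and skeletal muscle, was detected above 1 FPKM only in lung libraries, at 2.52, 2.85 and 1.61 FPKM in the controls and 1.102, 0.469 and 0.917 with H2, the largest change of a member there (-0.86 ± 0.21, limma adjusted p = 0.172). Its common form Rpl3 changed by -0.15 ± 0.10, from 746 ± 60.4 to 669 ± 3.83 FPKM. The summed FPKM of 15 striated muscle genes ran from 658 to 783 in the control lungs and from 182 to 475 in the H2 lungs, with 9 of 11 tested genes lower and up to 4 at 0 in a library, and its part in the level of Rpl3l was not tested. Rpl22l1 read 169, 211 and 202 FPKM in the controls and 132, 139 and 121 with H2 (-0.56 ± 0.12), where its partner Rpl22 overlapped between groups (127 ± 20.1 against 116 ± 1.62 FPKM, -0.12 ± 0.14). The differences between partners were not tested.

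Rpl39 had a lung change of -0.51 ± 0.14, and its paralog Rpl39l was too low to test. Rpl36a had a change of -0.41 ± 0.12, near that of its partner Rpl36al. Rps27l, an Rps27 paralog induced by p53, read 221, 255 and 243 FPKM in control lungs and 185, 191 and 187 in H2 lungs (-0.35 ± 0.10). Rpl7 and Rpl7l1 changed by -0.21 ± 0.12 and -0.29 ± 0.11. Rps4x changed by -0.18 ± 0.12, and Rps4l was the only member with a higher mean log2 level in the H2 lungs, at 32.1 ± 8.77 against 33.1 ± 6.98 FPKM with overlapping libraries. Rps19bp1, a nucleolar partner of Rps19 and regulator of Sirt1 that the symbol rule admits although it is no ribosomal protein, read 23.4, 21.1 and 21.2 FPKM in the controls and 17.6, 15.3 and 16.6 with H2.

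The lung calls turned on 1 control library. Without control lung 3, 21 members were called lower (limma adjusted p under 0.05), among them Rplp0, Rplp2, Rpl12, Rpl38, Rps2 and Rpsa, with a median over members of -0.34. Leaving out any other lung library gave 0 calls, and the median stayed between -0.37 and -0.29 in all 6 cases. In 1 fit of all 18 libraries Rplp0 and Rps2 were called. The shares of all genes called in these other fits are not given here, so the counts cannot be set against them.

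Other measures are given beside the lung result, and not all of them differed between the groups. The summed FPKM of 13 cell-cycle genes ran from 143 to 187 in control lungs and from 98.9 to 116 in H2 lungs, with 12 of 12 tested genes lower and none at 0 in any lung library. That of 6 plasma cell genes ran from 244 to 438 against 200 to 214 (4 of 6 lower), mostly Xbp1 and Sdc1, which other cells also express, while Jchain and Mzb1 were low and not lower with H2 (0.46 ± 0.31 and 0.43 ± 0.23). That of 12 macrophage genes ran from 4420 to 6405 against 5646 to 6082 (8 of 10 lower, sums overlapping). Estimated depth was 10.2 M to 12.9 M fragments in control lungs and 13.5 M to 15.5 M in H2 lungs. The part of these in the ribosomal protein levels was not tested, and in tissue RNA fewer cells of a type cannot be told apart from less RNA per cell.

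Liver members had close values in both arms. The median change was -0.08 (0.94-fold) beside -0.02 for all 10041 tested genes, 73 of 85 members had a lower mean with H2, and at equal FPKM sums 48 of 85 did, with a median of -0.02 beside 0.03 for all genes. With quantile normalization 51 of 85 had a lower mean. No member was called (0 by limma, 0 at an unadjusted p under 0.05, where 10.9% of all genes were higher and 10.2% lower), and 0.0199% of all genes were called higher and 0.0% lower. H2 lay below all controls in 2 of 85 members (2.35%, against 13.1% of all genes) and above them in none (12.2% of all genes). The 2 were Rps9 and Rpl27. Rps9, a small-subunit protein, read 802, 756 and 924 FPKM in control livers and 655, 668 and 713 with H2, a change of -0.28 ± 0.12 (limma adjusted p = 0.244). Rpl27 read 285, 247 and 284 against 240, 221 and 228 FPKM, a change of -0.24 ± 0.11 (limma adjusted p = 0.278). Rps21 had the smallest p of the members with a higher mean, at 446 ± 45.5 against 475 ± 49.0 FPKM.

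Members with known extra-ribosomal roles overlapped between the liver groups where named here. Rpl38 stood at 1307 ± 75.8 against 1288 ± 139 FPKM, Rps6 at 397 ± 23.9 against 367 ± 16.6 FPKM and Rpl11 at 743 ± 59.1 against 698 ± 68.2 FPKM. Rplp1 was higher with H2 by less than its spread, at 1513 ± 45.3 against 1572 ± 188 FPKM. Rps19bp1 changed by -0.41 ± 0.20, from 12.96 ± 2.78 to 9.48 ± 1.80 FPKM with overlapping libraries, and was the 1 member called when control liver 2 was left out. The summed FPKM of 12 macrophage genes ran from 454 to 1086 in control livers and from 340 to 439 in H2 livers. Of 11 tested genes 8 were higher and 3 lower, with none at 0. Cd14, at 580 ± 308 against 73.4 ± 22.5 FPKM, weighed most in the lower sum. Among the higher genes, Clec4f read 5.44 ± 1.43 against 17.1 ± 3.15 FPKM and Vsig4 3.97 ± 2.58 against 19.9 ± 4.59 FPKM. The part of these genes in the member levels was not tested.

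In part of the members the libraries numbered 1 of both arms lay apart on the same side, in liver and intestine more than in lung. For the liver both libraries numbered 1 lay above the others of their arm in 26 members and below in 9, and in 48 of 83 members neither held. The share over all genes is not given here. Rpl14 stood at 158 FPKM in control liver 1 against 240 and 247 FPKM in the others, and at 167 in H2 liver 1 against 237 and 219. Rps23, Rplp2 and Rpl22l1 were below in the same manner and Rpl29 above. In the intestine 3 members were above and 35 below in both, and in the lung 9 and 2.

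Intestinal members had higher means with H2 on FPKM as deposited, and this rested on 1 library. The median change was 0.19 (1.14-fold) beside 0.02 for all 11910 tested genes, and 74 of 85 members were higher. Without H2 intestine 2 the median was -0.01 and 29 of 85 were higher. At equal FPKM sums 11 of 85 were higher with a median of -0.11 beside -0.25 for all genes, and with quantile normalization 17 were higher with a median of -0.13. The members' share of summed FPKM was 9.82, 10.8 and 10.9% in the controls and 8.77, 9.49 and 10.1% with H2, so that FPKM and share pointed in opposite directions.

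In H2 intestine 2 itself the members stood a median log2 of 0.57 above the other H2 intestines, with 74 of 83 higher. Abundant genes of other kinds shifted more in this organ: of 356 other genes with at least 200 FPKM 64 had lower means with H2, and their median change was 0.34, beside 0.16 for 76 members at that level. No member was called (0 by limma, 2 at an unadjusted p under 0.05, Rps27l higher and Rpl26 lower, where 6.51% of all genes were higher and 5.96% lower), and 0.0% of all genes were called higher and 0.0084% lower. H2 lay above all controls in 4 of 85 members (4.71%, against 10.6% of all genes) and below in 2 (2.35%, against 8.75%). Marker sums moved as well: enterocyte genes ran from 2501 to 5470 FPKM in the controls and from 4006 to 9963 with H2 (6 of 7 tested higher), and adipocyte genes from 334 to 470 against 94.6 to 248 (6 of 7 lower, up to 2 of 8 at 0). Apoa1, which enterocytes and hepatocytes share, stood at 4726 ± 1533 against 10120 ± 4696 FPKM. Their part in the member levels was not tested.

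The 4 intestinal members above all controls were Rps27l, Rpl36al, Rpl41 and Rps19bp1. Rps27l read 229, 456 and 370 FPKM in the controls and 492, 863 and 494 with H2, a change of 0.81 ± 0.33 (limma adjusted p = 0.396). Rpl36al read 465, 520 and 473 against 579, 894 and 525 FPKM, a change of 0.42 ± 0.24. In both genes H2 intestine 2 was far above the rest, and the remaining H2 libraries lay just over the highest control. Rps19bp1 read 16.4, 21.2 and 18.2 against 27.6, 23.5 and 22.5 FPKM, a change of 0.38 ± 0.17 (limma adjusted p = 0.410), and here H2 intestine 2 was not the highest. The 2 members below all controls were Rplp2 and Rps9. Rplp2 read 1256, 1105 and 1078 FPKM in the controls and 762, 709 and 1070 with H2, a change of -0.46 ± 0.23, and the third H2 library lay close to the lowest control. Rps9 read 1112, 1116 and 1049 against 927, 1027 and 1047 FPKM.

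**Figure D4:**
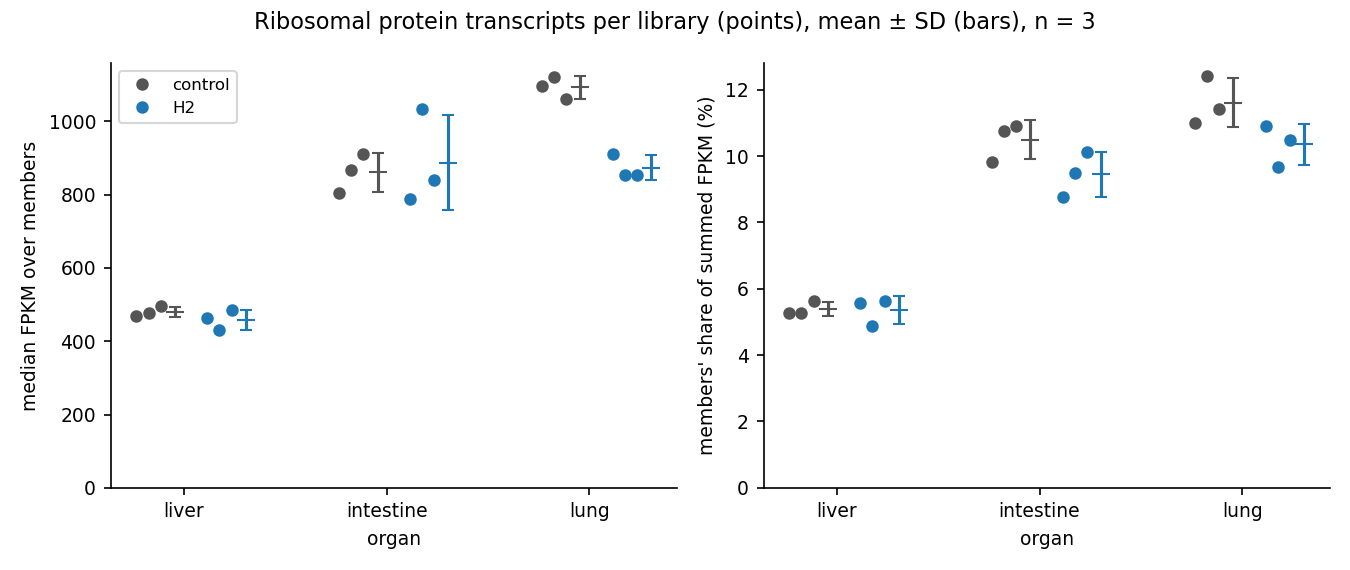
Median FPKM over the members (left) and their share of the summed FPKM (right) in each library of 3 organs (grey control, blue H2; points are libraries, bars mean ± SD, n = 3). The lung groups are separate in both panels, from 1060 to 1122 against 853 to 912 FPKM on the left, whereas in the intestine the highest FPKM is an H2 library but the H2 shares are lower on average.

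Large-subunit and small-subunit members had like changes in every organ. The median change of the large-subunit members minus that of the small-subunit members was -0.01 for liver, 0.02 for intestine and 0.02 for lung, each smaller than the SD of this difference between libraries of a group (0.024, 0.033 and 0.029). With 1 library left out the liver value reached -0.0327 and the lung value 0.0312, both past that SD. In the lung all 50 tested large-subunit members and 34 of 35 small-subunit members were lower with H2, with medians of -0.32 and -0.34, and 40 and 30 of them did not overlap. In the liver 44 of 50 and 29 of 35 were lower, and in the intestine 43 of 50 and 31 of 35 were higher. The ratio of the subunits, as the mean log2 FPKM of the large minus that of the small members, was -0.13 ± 0.05 in control lungs and -0.13 ± 0.01 in H2 lungs (SD, n = 3), and -0.22 ± 0.04 against -0.23 ± 0.06 in the intestine.

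Members with and without a pyrimidine run in the start-site sequence had similar medians. Such a run could lie before the annotated start, so these groups need not be mRNAs with and without a TOP motif. Control through TOP motifs was not tested. In the lung the median change was -0.36 in 36 members with a run and -0.32 in 28 without, for liver -0.07 and -0.08, and for intestine 0.15 and 0.21. Over 83 members, lung change had r = 0.09 with transcript length and r = 0.07 with the number of pseudogenes sharing sequence. With mean level, r was -0.16 for lung change (rho = -0.16), -0.17 for intestinal change (rho = -0.23) and 0.33 for liver change (rho = 0.25). The changes of the same members in different organs had Pearson correlations near 0 (r between -0.02 and 0.06), with Spearman's rho of 0.23 for liver against intestine, -0.07 for liver against lung and -0.04 for intestine against lung. Rplp2 was among the lowest in both lung and intestine, and Rpl27 in both lung and liver. These correlations are across genes that share their libraries and describe them.

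In the mean of the 3 organ changes 3 members were called lower and none higher (limma, adjusted p under 0.05), which is 3 of 85 where 5.23% of all genes were called lower and 4.39% higher. This fit counted the 18 libraries as independent, which does not hold if organs came from the same mice. At an unadjusted p under 0.05, 12 members were lower and 0 higher (15.3% and 15.4% of all genes). The median over members was -0.08 and 75 of 85 were lower, and without H2 intestine 2 it was -0.14 with 82 of 85 lower and Rps9, Rpl27 and Rps27a called. The called members were Rps9 (-0.25 ± 0.06, adjusted p = 0.0239), Rplp2 (-0.38 ± 0.11, adjusted p = 0.0399) and Rps13 (-0.24 ± 0.07, adjusted p = 0.0417), all in the limma fit of 18 libraries. Rps9 (mm10, chr7:3703993-3706897) read 1825, 1729 and 1660 FPKM in the control lungs and 1502, 1311 and 1298 with H2. With the liver and intestine values above, it was the only one of the 3 whose H2 libraries lay below all controls in every organ. In the intestine this rested on 1047 FPKM in H2 intestine 3 against 1049 in control intestine 3. The joint test used these same values, and the share of all genes below in every organ is not given here. Rplp2 (chr7:141447370-141451585) overlapped in the liver, at 563, 791 and 949 against 641, 679 and 759 FPKM. Rps13 (chr7:116331505-116334195) read 726, 700 and 637 against 570, 510 and 516 FPKM in the lung, 572, 617 and 668 against 507, 491 and 588 in the intestine and 306, 334 and 400 against 301, 316 and 334 in the liver, with separation only in the lung.

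The joint calls varied with the setting. Of 28 other settings Rps9 was called in 20, Rplp2 in 11 and Rps13 in 10, with the change below 0 in each of the 28 and limma adjusted p up to 0.282, 0.239 and 0.272. Without the libraries numbered 1 no member was called (11 at an unadjusted p under 0.05), nor without control liver 3, H2 liver 1, control lung 1, H2 lung 2 or H2 lung 3 alone (8 to 12 unadjusted), and leaving out any other library gave 1 to 5 calls. Rplp2 and Rps13 share 28.0% and 33.5% of their 50-base words with other annotated genes, mainly Wdr89 and the processed pseudogene Rps13-ps1, and Rps9 shares 12.4%.

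The difference of the H2 change between organs was tested for each member, and none was called. For intestine against lung the change was higher in the intestine in 84 of 85 members, with a median difference of 0.45, and 48 had an unadjusted p under 0.05, all higher (10.6% of all genes were higher and 9.12% lower). None passed adjustment (0 called by limma, against 0.771% of all genes called higher and 0.471% lower). The lowest limma adjusted p was 0.0546 for Rpl36al (0.91 ± 0.22), followed by Rpl27 (0.72 ± 0.20, 0.0750) and Rps27l (1.16 ± 0.32, 0.0769). At equal FPKM sums the median was -0.02 and with quantile normalization -0.05, and without H2 intestine 2 it was 0.29. Leaving out H2 intestine 3 gave 12 calls, among them Rpl36al, Rps27l, Rpl27 and Rpsa. Leaving out control lung 3 gave 4 (Rpl36al, Rpl27, Rpl12 and Rpsa), and leaving out control intestine 2 or H2 intestine 1 gave 1. For these fits the share of all genes called is not given here.

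For liver against lung 77 of 85 members had the higher change in the liver (median 0.22), with 67 and a median of 0.12 at equal FPKM sums and 53 and a median of 0.03 with quantile normalization. None was called (0 by limma, 6 at an unadjusted p under 0.05, all higher, where 6.65% of all genes were higher and 5.64% lower), against 0.165% and 0.0748% of all genes called higher and lower. Rps2 had the smallest p (0.51 ± 0.15, limma adjusted p = 0.158). For liver against intestine 78 of 85 had the lower change in the liver (median -0.25). None was called there either (0 by limma, 3 unadjusted, all lower, where 7.36% of all genes were higher and 8.12% lower), against 0.127% and 0.0898% of all genes called. Rps19bp1 had the smallest p (-0.79 ± 0.22, limma adjusted p = 0.126), and leaving out control liver 2 gave 1 call, Rps19bp1. At equal FPKM sums that median was 0.12 and without H2 intestine 2 it was -0.06. Organ comparisons share control libraries, and the values above are given side by side.

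**Figure D5:**
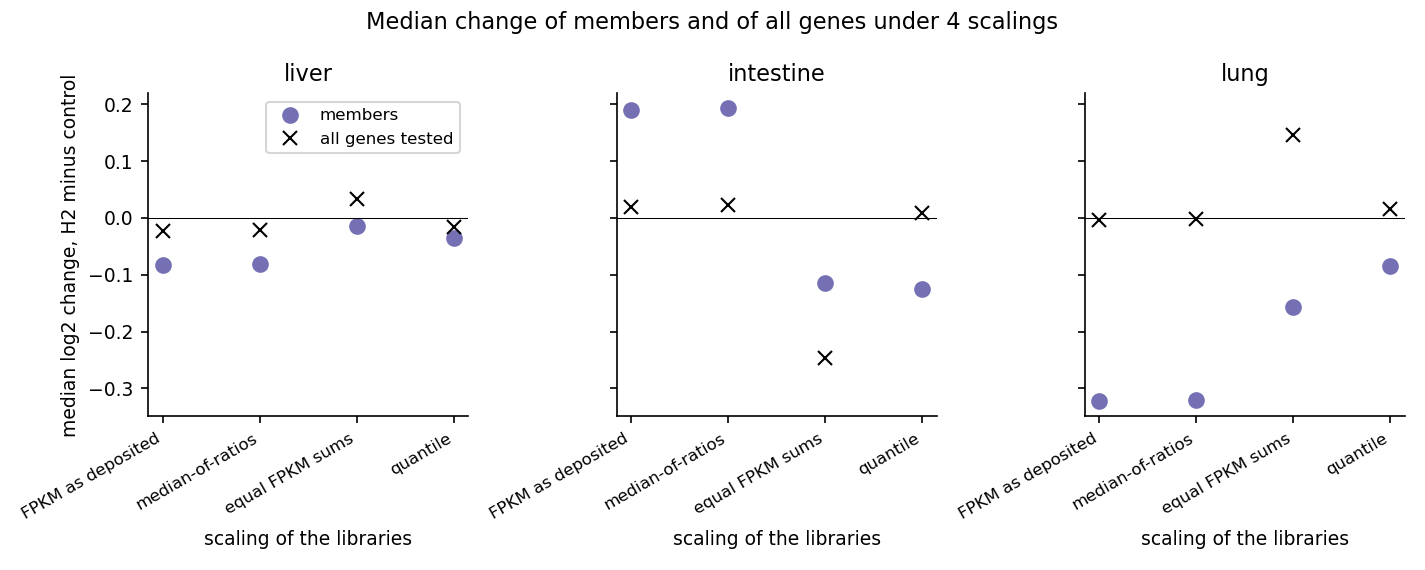
Median log2 change (H2 minus control) of the tested members (circles) and of all tested genes (crosses) under 4 scalings of the libraries in liver, intestine and lung. In the lung the members lie below all genes under each scaling, by 0.32 as deposited and 0.10 after quantile normalization, whereas in the intestine the sign of the members' median depends on the scaling.

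Levels in control mice differed between organs on FPKM as deposited, as did those of most genes. Against the intestine 76 of 85 members were lower in the liver and 0 higher (limma, adjusted p under 0.05, against 60.0% of all genes called lower and 12.6% higher), with a median difference of -0.85 beside -0.64 for all genes. Against the lung 78 were lower in the liver and 1 higher (76.0% and 9.15% of all genes), with medians of -1.09 and -1.17. Between intestine and lung 39 were lower in the intestine and 1 higher (51.3% and 17.6% of all genes), with medians of -0.30 and -0.45. Median-of-ratios scaling, which sets the median gene to about 0, gave 5 lower and 12 higher in liver against intestine, 1 and 35 in liver against lung and 0 and 25 in intestine against lung. With quantile normalization the counts were 64 lower and 2 higher, 71 and 4, and 30 and 6, so the direction between organs rests on the scaling.

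Single members departed from the common organ difference. Rplp0 and Rps26, among the members with the smallest p in liver against intestine, had log2 differences of -1.07 ± 0.10 and -1.27 ± 0.13. Rps19 was lower in liver than in lung by -1.96 ± 0.14, which is 0.87 further than the median member. Rpl36al differed from the other members in liver against intestine (0.06 ± 0.15, limma adjusted p = 0.749), and Rps27l in liver against lung (0.21 ± 0.22, limma adjusted p = 0.394), where the liver had 277 ± 26.1 and the lung 240 ± 17.0 FPKM. In intestine against lung Rps9 and Rps6 had the smallest p of the lower members, at -0.67 ± 0.10 and -0.54 ± 0.10. With median-of-ratios scaling Rps6 stood at 0.01 in that comparison. The 2 members called higher were Rpl26 in liver against lung (2.88 ± 1.23, limma adjusted p = 0.0386) and Rps27 in intestine against lung (2.92 ± 1.095, limma adjusted p = 0.0263), both parents of a more abundant copy.

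Genes that build or serve the ribosome were counted from fixed lists. Of 40 ribosome biogenesis genes 37 had lower means with H2 in liver (median -0.39), 21 in intestine (median -0.08) and 38 in lung (median -0.42). None was called within an organ (0 by limma). At an unadjusted p under 0.05 there were 12, 3 and 22 of 40, against 21.0, 12.5 and 23.1% of all genes. In the mean of the organs 9 were called lower and 0 higher, against 5.23% and 4.39% of all genes. The count called lower in that mean was 0 without the libraries numbered 1 or without control liver 3. It was 20 without control lung 3, 18 without control liver 2 and 1 to 14 without any other single library. At equal FPKM sums it was 2, and the intestine then had 31 of 40 lower with a median of -0.37. Without a filter it was 4, and without control lung 3, 23 were called lower in the lung itself. Shares of all genes called in these other fits are not given here. Of the 9 in the mean of the organs, Bysl (-0.34 ± 0.08, limma adjusted p = 0.0226) serves small-subunit assembly and Nle1 (-0.53 ± 0.12, limma adjusted p = 0.0238) large-subunit assembly. Gar1 (-0.58 ± 0.15, limma adjusted p = 0.0297) and Rrp9 (-0.45 ± 0.11, limma adjusted p = 0.0262) belong to small nucleolar RNPs that modify and cut ribosomal RNA. In the lung Fbl, the ribosomal RNA methyltransferase fibrillarin, stood at 63.3 ± 17.8 FPKM in controls and 37.0 ± 1.28 with H2.

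Of 32 translation factors 27 were lower in the liver (median -0.16), 18 in the intestine (median -0.05) and 27 in the lung (median -0.22). Within an organ 0 were called by limma. At an unadjusted p under 0.05 there were 5, 2 and 13 of 32, against 21.0, 12.5 and 23.1% of all genes. In the joint test 6 were called lower and 1 higher (5.23% and 4.39% of all genes). Both counts were 0 without the libraries numbered 1 or without control liver 3. At equal FPKM sums 18 of 32 were lower in the lung. Eif6, which keeps free large subunits from joining, was lower by a log2 of -0.56 ± 0.13 (limma adjusted p = 0.0240), and the elongation factor Eif5a by -0.33 ± 0.08 (limma adjusted p = 0.0224). The RNA helicase Eif4a2 rose by 0.51 ± 0.12 (limma adjusted p = 0.0239). Of 15 tested genes that control TOP mRNAs 2 were called, both lower (5.23% of all genes were called lower). They were Myc, a driver of ribosome production (-0.95 ± 0.23, limma adjusted p = 0.0274), and the translation repressor Eif4ebp1 (-0.52 ± 0.14, limma adjusted p = 0.0399). Without the libraries numbered 1, 0 were called. Larp1 itself had a change of -0.26 ± 0.12 and was not called. None of 10 p53 and nucleolar stress genes was called (0 by limma, 2 at an unadjusted p under 0.05, against 30.7% of all genes), with Sesn2 and Bax at -0.39 ± 0.13 and -0.28 ± 0.10.

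Ribosomal proteins outside the symbol rule and those of mitochondria gave a further comparison. Fau, whose product is a fusion of a ubiquitin-like part and a ribosomal protein, and Gnb2l1, which encodes the small-subunit scaffold Rack1, had lower values in the lung without overlap, at 1313 ± 64.6 against 1056 ± 63.9 FPKM and 712 ± 29.6 against 601 ± 25.9 FPKM. Of 77 mitochondrial ribosomal protein genes 67 were lower in the lung (median -0.21), with 36 below all controls (15.9% of all genes), 40 in the liver (median -0.04) and 9 in the intestine (median 0.35), where 24 lay above all controls (10.6% of all genes). At equal FPKM sums 48 were lower in the lung and 33 in the intestine, and without H2 intestine 2 the intestinal median was 0.24 with 9 lower. In the joint test 3 of 77 were called higher (4.39% of all genes) and 1 lower (5.23%). The former included Mrpl49 (0.40 ± 0.09, limma adjusted p = 0.0220), and Mrps18b was called lower (-0.40 ± 0.11, limma adjusted p = 0.0404), with none called at equal FPKM sums or without the libraries numbered 1.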

How the data were processed

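Per the labels' protocols, miRNeasy Micro RNA went into TruSeq stranded mRNA libraries. The submitters' processing notes name build mm10, Cufflinks 2.2.1, TopHat2 2.0.13, SAMtools 0.1.19 and Bowtie2 2.2.3, and the annotation is not given in the sources used here. Each library has 1 column of FPKM as deposited by the authors, and 1 column that repeats another library was not used. They keep no counts, columns do not sum to 1 total, and how multiply mapped fragments were shared among copies is not stated.

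The test was limma 3.58.1 (R 4.3.3, two-sided, moderated with a trend) on log2(FPKM + 1), over genes with a mean of at least 1 FPKM, with Benjamini-Hochberg adjustment over all tested genes and calls at an adjusted p under 0.05. Each organ was fitted on its 6 libraries. The mean over organs, differences between organs and control levels used all 18 libraries with 1 mean per group. These fits counted the 18 libraries as independent, because the labels do not say which organs share a mouse. Fold changes of low genes are understated on this scale, and with 3 against 3 libraries an exact permutation test cannot give a p under 0.1. The members and gene lists were chosen with earlier results of these data known. Named are members called (up to 10 per direction) or, where fewer than 5 were called, the 5 per direction with the smallest p, up to 5 per direction in the organ differences, 8 paralog pairs, 16 members with known roles, the 3 highest and lowest rows per organ and up to 4 genes per further list. Rpl14, Rps23, Rpl29, Rps13-ps1, Wdr89 and the partner rows were named after their values were seen. Some genes under this rule are not reported here. The fit was tested on simulated data.

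Depth was estimated from FPKM times transcript length at 1 fragment and gives no interval. Sequence sharing is the percent of 50-base words in GENCODE vM21 transcripts. Alternatives were no filter, a mean of at least 5 FPKM, a pseudocount of 0.1 or 5, median-of-ratios scaling, quantile normalization, no trend, a replicate block, 1 fit of all 18 libraries, the members without the second gene of each pair, and each library left out. Equal FPKM sums and leaving out the libraries numbered 1 were chosen after seeing the data.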

Additional observations from a re-analysis of the deposited data

How the results depend on the processing

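With 3 libraries per group no single library can be tested as an outlier, and FPKM give no counting error. The median member change in the lung was -0.0838 with quantile normalization, -0.157 at equal FPKM sums and -0.39 without the libraries numbered 1, and in the intestine -0.125 and -0.114 under the first 2. In 1 fit of all 18 libraries 2 lung members were called. The joint test called 1 member without a filter and 0 without the libraries numbered 1. The difference of the H2 change called 1 member for liver against lung without a filter and 1 for intestine against lung with a pseudocount of 5. Median-of-ratios scaling called 17 members in control liver against intestine, 36 in liver against lung and 25 in intestine against lung. On FPKM as deposited the intestine against lung count of 40 became 26 without the libraries numbered 1. Median-of-ratios scaling also turned Rpl17 in intestine against lung (0.007098) and Rps6 there (0.01477). The cause was not tested.

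With each library left out in turn, calls ranged from 0 to 1 in the liver, 0 to 0 in the intestine and 0 to 21 in the lung, from 0 to 5 in the joint test, and from 0 to 1, 0 to 0 and 0 to 12 for liver against intestine, liver against lung and intestine against lung. Control levels ranged from 71 to 78, 77 to 80 and 28 to 54 calls in the same order. Shares of all genes called with a library left out are not given here. Median changes ranged from -0.124 to -0.0448 in the liver, -0.0137 to 0.279 in the intestine and -0.37 to -0.288 in the lung, and the large minus small subunit values from -0.0327 to -0.0121, -0.00347 to 0.0264 and 0.00495 to 0.0312.

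The replicate numbers of the titles were not used to pair the libraries in the main fits. Same-numbered libraries of an organ correlated between -0.11 and 0.33 over all genes. The highest value was that of the liver libraries numbered 1, where control liver 1 had -0.11 and -0.29 with H2 livers 2 and 3. Over the members alone the correlations were 0.76, 0.48 and 0.30 in the liver, 0.33, -0.11 and 0.24 in the intestine and 0.02, 0.44 and 0.23 in the lung, so that in the liver each was above 0.1. With the replicate block 0 members were called in the liver (0 at an unadjusted p under 0.05), 2 in the joint test and 1, Rps27l, in intestine against lung, and control levels gave 32 calls in intestine against lung. Of the changes of single named members under the alternatives, 3589 stayed within their limits and 141 moved by more than the spread. A call was gained in 57 and lost in 62. A turn of sign was counted only for changes called in the main fit, and 2 of these turned. Changes not called there were sorted by the size of the move, so turns of their sign are not in this count.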
